A study of Mus musculus with 11 samples.

Results

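The enzymes and carriers described here serve the oxidation of fuel in mitochondria. They are 31 mouse genes chosen by function, 16 of the pyruvate dehydrogenase complex and the TCA cycle and 15 of fatty acid oxidation, and all 31 were measured among 19938 genes with a named probe set. Expression was profiled on 11 Affymetrix arrays of mouse stomach. Gastric cancer tissue labelled as diffuse type came from mice with Pdx-1-Cre, 4 samples with Cdh1F/+ together with Trp53F/F and Smad4F/F (pChePS_GC) and 3 samples with Cdh1F/F and Trp53F/F (pCP_GC). Normal gastric epithelium came from 4 samples of Pdx1-1-Cre-negative mice (NGE). Cre was driven by the Pdx-1 promoter, so recombination depends on where that promoter is active. The labels used here give no age or sex, do not say whether the Cre-negative mice carried floxed alleles, and record no drug treatment in any group. Whether each sample is a different mouse is not stated either, and the p-values cover the spread among these 11 samples, which may in part be technical.

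Pyruvate dehydrogenase makes acetyl-CoA from pyruvate, and the TCA cycle oxidises the acetyl group while reducing NAD+ and FAD. Long-chain fatty acids reach the matrix through the carnitine shuttle, are shortened by repeated rounds of dehydrogenation, hydration, dehydrogenation and thiolysis, and pass part of their electrons through the electron transfer flavoproteins to ubiquinone. In the stomach, the acid-secreting parietal cells of the glands are known for being packed with mitochondria.

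The deposited values are normalized log2 signals, so a difference of -1 means that the signal fell to 50% of the other group's. Cdh1, which encodes E-cadherin, is floxed in both tumour groups and read 9.76, 11.07, 8.81 and 8.73 in pChePS_GC, 12.02, 11.06 and 10.52 in pCP_GC and 12.95, 12.94, 13.02 and 13.02 in NGE. Smad4, floxed in pChePS_GC alone, read 10.18, 10.61, 11.02 and 10.17 in pChePS_GC, 11.43, 11.49 and 11.41 in pCP_GC and 11.16, 11.08, 11.05 and 11.07 in NGE. Every tumour array lay below every NGE array for Cdh1, and in pChePS_GC replicate 3 the Smad4 value, at 11.02, was close to the NGE range of 11.05 to 11.16. Where the probes lie relative to the floxed exons is not given in the sources used here, and Trp53 is not analysed here. Tumour and NGE samples also differed in tissue makeup and sex-linked transcripts. The mean log2 signal of 8 fibroblast genes was 10.85 to 11.98 in pChePS_GC, 11.09 to 12.02 in pCP_GC and 8.15 to 8.53 in NGE, and that of 8 macrophage genes was 10.43 to 11.16 in pChePS_GC, 10.11 to 11.42 in pCP_GC and 7.36 to 7.59 in NGE. Xist, transcribed from the inactive X chromosome, read 5.57 to 6.02 over the 7 tumour arrays and 11.54 to 12.66 in NGE, while the Y-linked Eif2s3y read 8.08 to 11.09 in the tumours and 4.94 to 5.19 in NGE. Sex and tumour therefore cannot be told apart in the comparisons with NGE.

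In pChePS_GC, 21 of the 31 enzyme genes were lower than in NGE and 0 were higher (limma, Benjamini-Hochberg adjusted p under 0.05), against a background of 23.4% of all genes lower and 18.7% higher. In pCP_GC, 26 were lower and 0 were higher, against a background of 31.8% lower and 20% higher. The median log2 difference of the 31 genes was -0.56 in pChePS_GC and -0.74 in pCP_GC, where the median of all genes was -0.10 and -0.12. Among the 7351 genes at least as bright as the dimmest enzyme gene, whose mean was 9.06, the shares lower were 19.9% in pChePS_GC and 17.4% in pCP_GC. In bulk tissue, fewer cells of a type and less RNA per cell cannot be told apart. Both comparisons use the same NGE arrays and are therefore given side by side.

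The decreases were moderate in size. An adjusted p under 0.05 with at least a 2-fold decrease was reached in pChePS_GC by 3 genes, Ogdh, Cpt2 and Etfa, where 3.34% of all genes met that rule, and in pCP_GC by 4, the same 3 and Acaa2, where 2.83% of all genes met it. No tumour array overlapped the NGE arrays for 21 genes in pChePS_GC, with a background of 22.9%, and for 30 genes in pCP_GC, with a background of 35.6%. Idh3g was the gene that overlapped in pCP_GC. The count of genes lower depended on single arrays, running between 17 and 24 in pChePS_GC and between 21 and 28 in pCP_GC as each array was left out in turn. NGE replicate 2 carried the highest NGE value of 28 of the 31 genes, and without it 17 genes were lower in pChePS_GC and 23 in pCP_GC. Leaving out NGE replicate 4 instead, which was highest for 1 gene, lost the same calls and gave the same counts. The drop was therefore not particular to replicate 2.

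**Figure D1:**
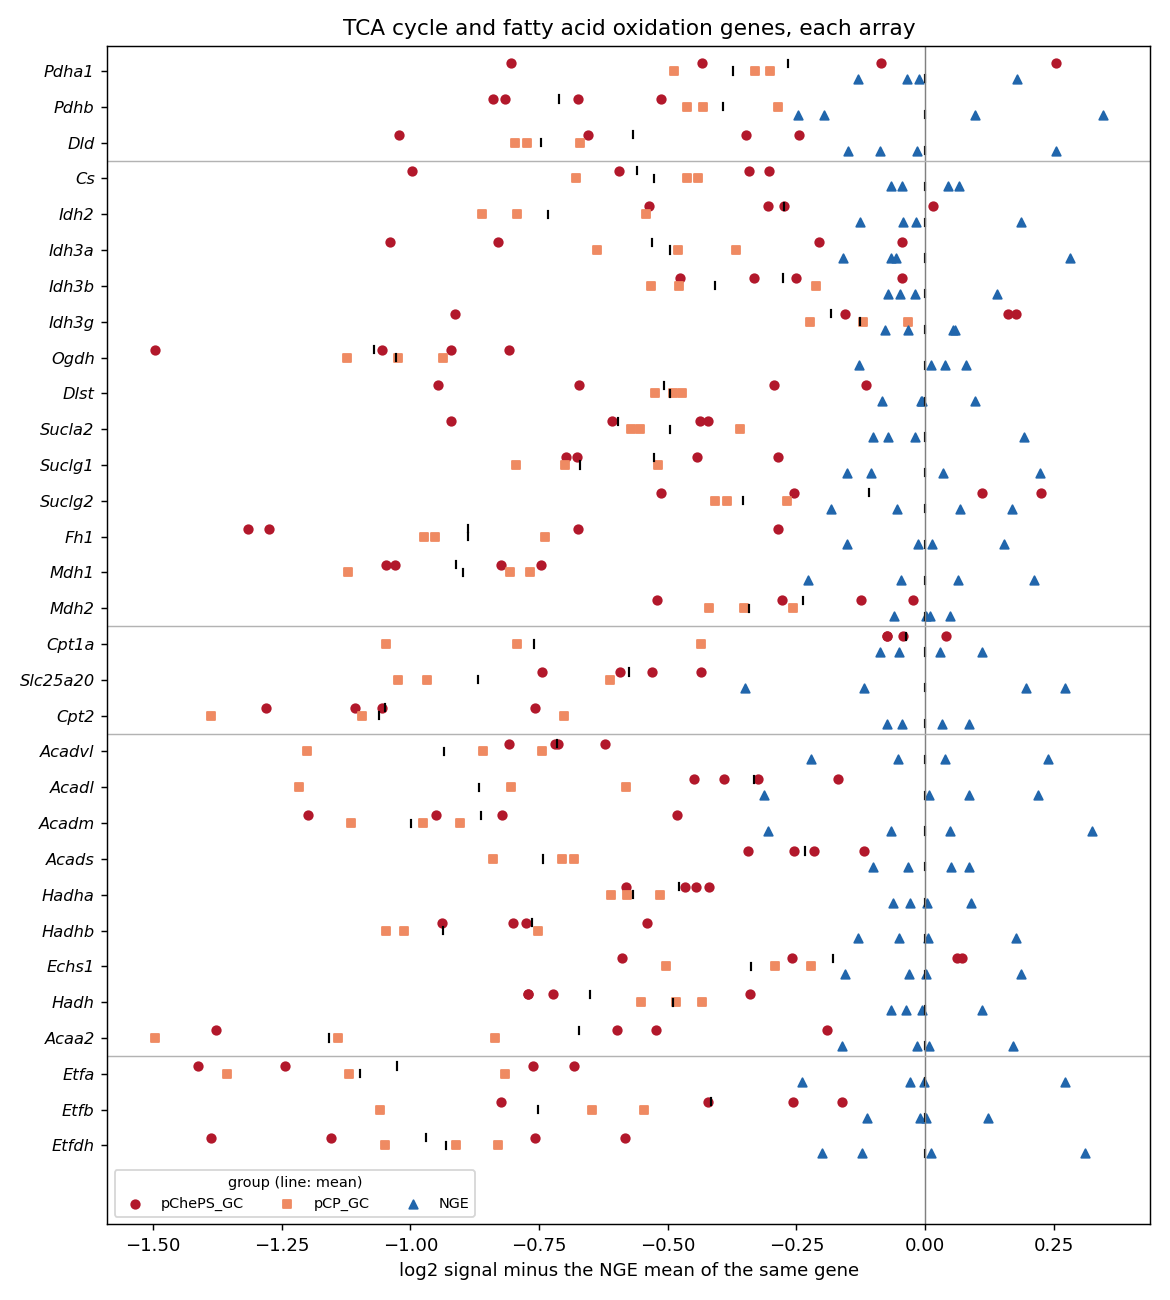
Log2 signal of each of the 31 genes in each array minus the NGE mean of the same gene, with pChePS_GC (4 circles), pCP_GC (3 squares) and NGE (4 triangles) on separate lines and a short black line at each group mean. Grey lines part the pyruvate dehydrogenase, TCA cycle, carnitine shuttle, beta-oxidation and electron transfer genes; the pChePS_GC arrays of Cpt1a lie among the NGE arrays while its pCP_GC arrays lie below them.

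The pyruvate dehydrogenase complex was represented by its catalytic E1 subunits Pdha1 and Pdhb and by Dld, the E3 dihydrolipoamide dehydrogenase that it shares with the 2-oxoglutarate dehydrogenase complex. Pdhb had log2 signals of 8.91, 8.75, 8.61 and 8.59 in pChePS_GC, 9.14, 8.96 and 8.99 in pCP_GC and 9.23, 9.77, 9.18 and 9.52 in NGE. Dld read 10.54, 10.85, 10.17 and 10.95 in pChePS_GC, 10.52, 10.42 and 10.40 in pCP_GC and 11.10, 11.45, 11.04 and 11.18 in NGE. For both genes all tumour arrays were below all NGE arrays. Pdhb was at 61.1% of the NGE level in pChePS_GC (log2 difference -0.71 ± 0.14, SE, adjusted p = 0.00225) and at 76.1% in pCP_GC (-0.39 ± 0.15, adjusted p = 0.0422). The call for Pdhb in pCP_GC was lost without NGE replicate 2 or 4, pChePS_GC replicate 2 or any of the 3 pCP_GC replicates (adjusted p 0.0536 to 0.115). Dld decreased by 0.57 in pChePS_GC (adjusted p = 0.0171) and by 0.75 in pCP_GC (adjusted p = 0.00493).

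Pdha1, the X-linked alpha subunit that carries the regulatory phosphorylation sites, was spread widely among the pChePS_GC tumours. It read 10.96, 11.68, 11.33 and 12.02 in pChePS_GC, 11.46, 11.28 and 11.44 in pCP_GC and 11.76, 11.94, 11.64 and 11.73 in NGE. Replicate 4 of pChePS_GC exceeded every NGE array and replicate 1 lay below every other array, while the pCP_GC arrays were all just under the NGE range. Neither difference passed (-0.27, adjusted p = 0.264 in pChePS_GC and -0.37, adjusted p = 0.145 in pCP_GC), although Pdha1 passed in pChePS_GC without pChePS_GC replicate 4 (adjusted p = 0.0453).

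The TCA cycle list held 13 of the genes, of which 7 were lower in pChePS_GC and 10 in pCP_GC, with medians of -0.53 and -0.50 on the log2 scale. These counts include the cytosolic Mdh1 and the NADP+-dependent Idh2. The largest decrease was that of Ogdh, the E1 subunit of 2-oxoglutarate dehydrogenase. It read 11.47, 12.16, 11.91 and 12.05 in pChePS_GC, 12.03, 11.84 and 11.94 in pCP_GC and 13.04, 13.004, 12.84 and 12.98 in NGE. The gap between the highest tumour array and the lowest NGE array was wider than the whole NGE range, and pChePS_GC replicate 1 was the lowest. Ogdh was at 47.6% of the NGE level in pChePS_GC (-1.07 ± 0.13, adjusted p = 0.000167) and at 49% in pCP_GC (-1.03 ± 0.15, adjusted p = 0.00038). Dlst, the E2 succinyltransferase of the same complex, had a smaller difference (-0.51 ± 0.15, adjusted p = 0.0239, in pChePS_GC and -0.50 ± 0.17, adjusted p = 0.0287, in pCP_GC). Its pCP_GC arrays were nearly equal at 10.76, 10.71 and 10.75, whereas the pChePS_GC arrays read 10.56, 10.94, 10.29 and 11.12. The Dlst call in pChePS_GC was lost without NGE replicate 1, 2 or 4 or pChePS_GC replicate 1 (adjusted p 0.0503 to 0.0571), and in pCP_GC it was lost without NGE replicate 1, 2 or 4 or any of the pCP_GC replicates (adjusted p 0.0544 to 0.0737).

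Fumarase and malate dehydrogenase, which carry fumarate to malate and malate to oxaloacetate, came next in size. Fh1, the fumarase gene, read 10.87, 11.90, 10.91 and 11.51 in pChePS_GC, 11.45, 11.23 and 11.21 in pCP_GC and 12.04, 12.34, 12.20 and 12.17 in NGE. Replicates 1 and 3 of pChePS_GC were about a log2 unit below replicate 2, yet all 4 were below NGE. Its differences were -0.89 ± 0.20 in pChePS_GC (adjusted p = 0.00644) and -0.89 ± 0.22 in pCP_GC (adjusted p = 0.00692). Mdh1, the cytosolic malate dehydrogenase of the malate-aspartate shuttle, read 11.38, 11.66, 11.36 and 11.58 in pChePS_GC, 11.60, 11.29 and 11.64 in pCP_GC and 12.18, 12.62, 12.47 and 12.36 in NGE. All tumour arrays lay below all NGE arrays. Mdh1 fell to 53.1% of the NGE level in pChePS_GC (-0.91 ± 0.12, adjusted p = 0.000259) and to 53.6% in pCP_GC (-0.90 ± 0.13, adjusted p = 0.000485). The mitochondrial isoform Mdh2, which is the enzyme of the cycle, differed less. Mdh2 did not pass in pChePS_GC (-0.24, adjusted p = 0.09) and was lower in pCP_GC (-0.34, adjusted p = 0.0271). Without pChePS_GC replicate 2 Mdh2 passed in pChePS_GC (adjusted p = 0.0458), and without NGE replicate 1, 2 or 4 or pCP_GC replicate 1 or 2 its pCP_GC call was lost (adjusted p 0.0529 to 0.087).

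Citrate synthase and succinyl-CoA synthetase were lower in part. Cs, which condenses acetyl-CoA with oxaloacetate, read 12.06, 12.47, 12.72 and 12.76 in pChePS_GC, 12.60, 12.38 and 12.62 in pCP_GC and 13.13, 13.02, 12.995 and 13.11 in NGE. All tumour arrays were below NGE, with pChePS_GC replicate 1 the lowest. Cs fell by 0.56 in pChePS_GC (adjusted p = 0.0104) and by 0.53 in pCP_GC (adjusted p = 0.0147), the pCP_GC call being lost without pCP_GC replicate 2 (adjusted p = 0.0591). Suclg1, the alpha subunit common to both forms of succinyl-CoA synthetase, fell by 0.53 in pChePS_GC (adjusted p = 0.00674) and by 0.67 in pCP_GC (adjusted p = 0.00217). Sucla2, the ADP-forming beta subunit, fell by 0.60 in pChePS_GC (adjusted p = 0.00339) and by 0.49 in pCP_GC (adjusted p = 0.00988). The GDP-forming beta subunit Suclg2 read 11.47, 11.58, 10.85 and 11.10 in pChePS_GC, 11.09, 10.95 and 10.97 in pCP_GC and 11.43, 11.53, 11.18 and 11.31 in NGE. Its pChePS_GC arrays ran across the whole NGE range and beyond it on both sides, while its pCP_GC arrays lay below NGE. Suclg2 passed in neither group (-0.11, adjusted p = 0.579 in pChePS_GC and -0.35, adjusted p = 0.0932 in pCP_GC). It passed in pCP_GC without pChePS_GC replicate 3 (adjusted p = 0.0424), and the estimate in pChePS_GC turned to 0.03 without the same array (adjusted p = 0.88).

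The isocitrate dehydrogenases contained most of the cycle genes that did not pass. In pChePS_GC none of Idh2, Idh3a, Idh3b and Idh3g passed, and in pCP_GC Idh2 and Idh3b were lower. Idh2, the NADP+-dependent mitochondrial enzyme, read 11.64, 11.93, 11.61 and 11.38 in pChePS_GC, 11.05, 11.37 and 11.12 in pCP_GC and 11.79, 12.10, 11.89 and 11.87 in NGE. The pCP_GC arrays were the lowest, below every other array, and pChePS_GC replicate 2 reached the NGE range. Its difference was -0.27 ± 0.13 in pChePS_GC (adjusted p = 0.0981) and -0.73 ± 0.14 in pCP_GC (adjusted p = 0.00166). Idh2 passed in pChePS_GC without pChePS_GC replicate 2 (-0.37, adjusted p = 0.0363).

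The NAD+-dependent isocitrate dehydrogenase is built of the catalytic subunit encoded by Idh3a and the regulatory subunits encoded by Idh3b and Idh3g. Idh3a read 10.71, 11.71, 10.92 and 11.55 in pChePS_GC, 11.39, 11.12 and 11.27 in pCP_GC and 11.59, 12.04, 11.69 and 11.70 in NGE. Replicates 1 and 3 of pChePS_GC were low while replicate 2 was above the lowest NGE arrays. Neither difference passed (-0.53, adjusted p = 0.0587 in pChePS_GC and -0.50, adjusted p = 0.0828 in pCP_GC). Idh3a passed in pChePS_GC without pChePS_GC replicate 2 or 4 (adjusted p 0.0206 and 0.0381) and in pCP_GC without pChePS_GC replicate 1 (adjusted p = 0.0428). Idh3b did not pass in pChePS_GC (-0.28, adjusted p = 0.0641) and was lower in pCP_GC (-0.41, adjusted p = 0.0153). It passed in pChePS_GC without pChePS_GC replicate 2 (adjusted p = 0.0312), and its pCP_GC call was lost without pCP_GC replicate 2 or 3 (adjusted p 0.0532 and 0.0598).

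The X-linked Idh3g differed least among the TCA cycle genes in pCP_GC (-0.13, adjusted p = 0.648). It read 11.39, 12.46, 12.15 and 12.48 in pChePS_GC, 12.18, 12.08 and 12.27 in pCP_GC and 12.27, 12.36, 12.36 and 12.22 in NGE. In pChePS_GC replicate 1 was well below the rest and 2 of the other arrays were above all of NGE, so that the difference of -0.18 (adjusted p = 0.477) became 0.06 without replicate 1 (adjusted p = 0.646). Pdha1 and Idh3g, the X-linked genes among the 31, were measured between groups that also differed in Xist; the part of sex in their values was not tested.

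**Figure D2:**
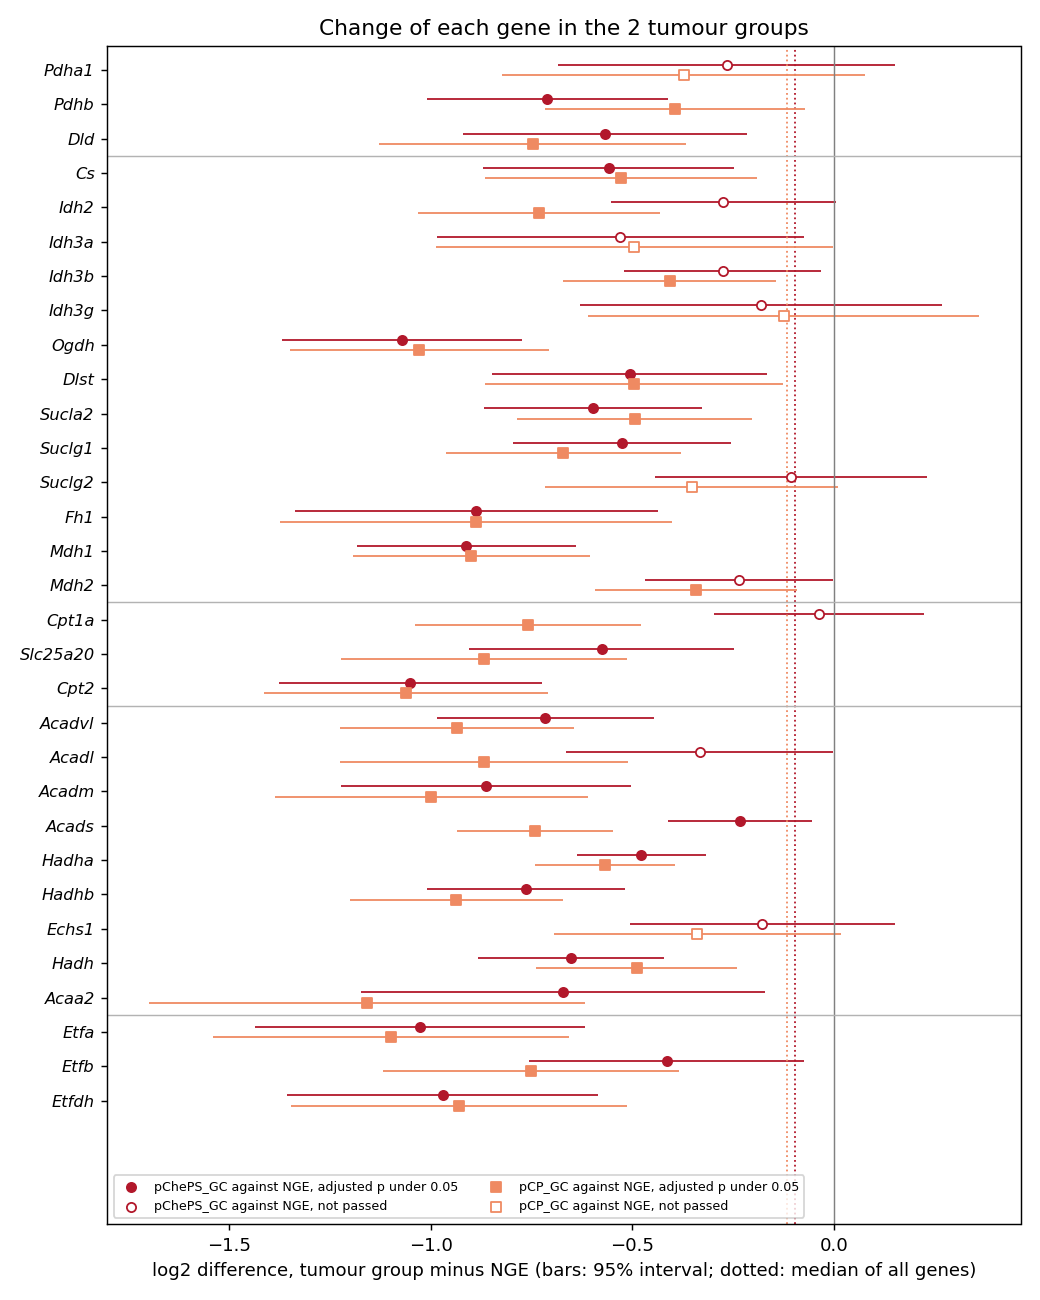
Log2 difference of each gene against NGE in pChePS_GC (circles) and pCP_GC (squares) with 95% intervals from the fit; filled symbols passed an adjusted p under 0.05, and dotted lines mark the median of all genes at -0.10 and -0.12. All 62 estimates lie below 0, and Ogdh, Cpt2 and Etfa lie beyond -1 in both comparisons.

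The carnitine shuttle held the gene with the largest difference between the tumour groups. Cpt1a, the outer-membrane palmitoyltransferase that malonyl-CoA inhibits and that sets the entry of long-chain fatty acids, read 12.28, 12.25, 12.36 and 12.25 in pChePS_GC, 11.89, 11.28 and 11.53 in pCP_GC and 12.27, 12.35, 12.24 and 12.43 in NGE. The pChePS_GC arrays lay within the NGE range, and every pCP_GC array lay below all the others. Cpt1a fell to 59.1% of the NGE level in pCP_GC (-0.76 ± 0.13, adjusted p = 0.000987), and its difference in pChePS_GC was -0.04 (95% interval -0.30 to 0.22, adjusted p = 0.808), which became 0.02 when each array was centred on its median. Slc25a20, the carnitine-acylcarnitine carrier of the inner membrane, read 9.94, 9.79, 9.85 and 9.63 in pChePS_GC, 9.77, 9.35 and 9.41 in pCP_GC and 10.26, 10.65, 10.03 and 10.57 in NGE. All tumour arrays were below NGE. Slc25a20 fell by 0.58 in pChePS_GC (adjusted p = 0.0115) and by 0.87 in pCP_GC (adjusted p = 0.00162).

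Cpt2, the inner-membrane transferase that re-forms acyl-CoA in the matrix, fell about as far in both groups. It read 10.52, 10.81, 10.29 and 10.47 in pChePS_GC, 10.87, 10.19 and 10.48 in pCP_GC and 11.50, 11.66, 11.53 and 11.60 in NGE. The 4 NGE arrays were close together and the tumour arrays were all well below them, with pCP_GC replicate 2 the lowest. Cpt2 was at 48.3% of the NGE level in pChePS_GC (-1.05 ± 0.15, adjusted p = 0.000342) and at 47.9% in pCP_GC (-1.06 ± 0.16, adjusted p = 0.000546).

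Of the 9 beta-oxidation genes, 7 were lower in pChePS_GC and 8 in pCP_GC, with medians of -0.65 and -0.87 on the log2 scale. The acyl-CoA dehydrogenases open each round and differ in the chain length they prefer. Acadm, the medium-chain enzyme, read 11.31, 10.97, 10.84 and 10.59 in pChePS_GC, 10.89, 10.82 and 10.68 in pCP_GC and 11.73, 12.12, 11.49 and 11.84 in NGE. Acadvl, the very-long-chain enzyme bound to the inner membrane, read 9.78, 9.88, 9.69 and 9.78 in pChePS_GC, 9.75, 9.30 and 9.64 in pCP_GC and 10.28, 10.74, 10.44 and 10.54 in NGE. In both genes the groups were apart, and NGE replicate 2 was the highest array. Acadm fell by 0.86 in pChePS_GC (SE 0.16, adjusted p = 0.00217) and by 1.00 in pCP_GC (SE 0.18, adjusted p = 0.00128). Acadvl fell by 0.72 in pChePS_GC (SE 0.12, adjusted p = 0.00114) and by 0.93 in pCP_GC (SE 0.13, adjusted p = 0.000363).

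The long-chain and short-chain dehydrogenases had the smallest estimates of the 4 in pChePS_GC. Acadl, the long-chain enzyme, read 11.48, 11.55, 11.70 and 11.42 in pChePS_GC, 11.07, 10.65 and 11.29 in pCP_GC and 11.56, 12.09, 11.96 and 11.88 in NGE. In pChePS_GC 1 array, replicate 3, lay inside the NGE range, and pCP_GC lay below NGE throughout. Acadl was lower in pCP_GC (-0.87 ± 0.16, adjusted p = 0.00168) and did not pass in pChePS_GC (-0.33 ± 0.15, adjusted p = 0.0923), where it passed without NGE replicate 1 (adjusted p = 0.0457) or pCP_GC replicate 2 (adjusted p = 0.0498). Acads, the short-chain enzyme, read 10.88, 10.98, 10.85 and 10.76 in pChePS_GC, 10.39, 10.26 and 10.42 in pCP_GC and 11.07, 11.19, 10.998 and 11.15 in NGE. The groups formed separate ranges with pChePS_GC in the middle. Acads was at 85.1% of the NGE level in pChePS_GC (-0.23 ± 0.08, adjusted p = 0.0397) and at 59.8% in pCP_GC (-0.74 ± 0.09, adjusted p = 0.000125). The pChePS_GC call was lost without NGE replicate 1, 2 or 4, pChePS_GC replicate 1, 3 or 4 or pCP_GC replicate 1 (adjusted p 0.0542 to 0.0976).

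The mitochondrial trifunctional protein, which carries out the remaining steps on long chains, is encoded by Hadha and Hadhb. Hadha, with the hydratase and hydroxyacyl-CoA dehydrogenase activities, read 12.09, 12.06, 11.93 and 12.04 in pChePS_GC, 11.99, 11.93 and 11.90 in pCP_GC and 12.48, 12.60, 12.44 and 12.51 in NGE. Hadhb, the thiolase subunit, read 11.26, 11.03, 10.87 and 11.002 in pChePS_GC, 11.05, 10.79 and 10.76 in pCP_GC and 11.67, 11.98, 11.75 and 11.81 in NGE. In both genes the tumour ranges were wholly below NGE. Hadha fell by 0.48 in pChePS_GC (SE 0.07, adjusted p = 0.000543) and by 0.57 in pCP_GC (SE 0.08, adjusted p = 0.000318). Hadhb fell by 0.76 in pChePS_GC (SE 0.11, adjusted p = 0.000415) and by 0.94 in pCP_GC (SE 0.12, adjusted p = 0.000209). The brighter probe sets of Hadhb and Suclg2, which are the ones used, are numbered among probe sets of chromosomes 2 and X, while RefSeq places these genes on chromosomes 5 and 6. They may therefore report near-identical copies and their levels are uncertain. The dimmer probe sets, numbered among neighbours on the genes' own chromosomes, gave -0.79 and -0.95 for Hadhb and -0.14 and -0.40 for Suclg2 in pChePS_GC and pCP_GC, with the same calls.

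The enzymes that act on shorter chains completed the spiral. Hadh, the medium- and short-chain hydroxyacyl-CoA dehydrogenase, read 12.01, 12.05, 12.44 and 12.01 in pChePS_GC, 12.34, 12.22 and 12.29 in pCP_GC and 12.77, 12.89, 12.71 and 12.74 in NGE. Replicate 3 of pChePS_GC stood above the other 3, and all tumour arrays were below NGE. Hadh fell by 0.65 in pChePS_GC (adjusted p = 0.000772) and by 0.49 in pCP_GC (adjusted p = 0.00483). Acaa2, the matrix thiolase, read 12.33, 12.66, 12.26 and 11.48 in pChePS_GC, 12.02, 11.71 and 11.36 in pCP_GC and 12.84, 13.02, 12.69 and 12.86 in NGE. The pChePS_GC arrays spanned more than a log2 unit, with replicate 4 far below replicate 2. Acaa2 was at 62.7% of the NGE level in pChePS_GC (-0.67 ± 0.23, adjusted p = 0.0355) and at 44.8% in pCP_GC (-1.16 ± 0.24, adjusted p = 0.00319). Its pChePS_GC call was lost without any of the 4 NGE replicates or pChePS_GC replicate 3 or 4 (adjusted p 0.0524 to 0.0761), and without replicate 4 of pChePS_GC the difference was -0.44.

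Echs1, the short-chain enoyl-CoA hydratase, passed in neither group. It read 10.75, 11.08, 11.41 and 11.40 in pChePS_GC, 11.05, 10.83 and 11.12 in pCP_GC and 11.18, 11.52, 11.34 and 11.31 in NGE. Replicates 3 and 4 of pChePS_GC were inside the NGE range and replicate 1 was the lowest of all, while the pCP_GC arrays lay below NGE. The differences were -0.18 ± 0.15, adjusted p = 0.342, in pChePS_GC and -0.34 ± 0.16, adjusted p = 0.098, in pCP_GC. Without pChePS_GC replicate 1 the pCP_GC difference passed (adjusted p = 0.0391).

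All 3 genes that pass electrons from the acyl-CoA dehydrogenases to ubiquinone were lower in both tumour groups. Etfa, the alpha subunit of the electron transfer flavoprotein, read 10.78, 10.86, 10.13 and 10.30 in pChePS_GC, 10.73, 10.19 and 10.43 in pCP_GC and 11.31, 11.82, 11.52 and 11.54 in NGE. Etfdh, the oxidoreductase of the inner membrane that receives those electrons, read 10.60, 10.42, 10.02 and 9.79 in pChePS_GC, 10.35, 10.13 and 10.27 in pCP_GC and 10.98, 11.49, 11.06 and 11.19 in NGE. The groups were apart in both genes, and NGE replicate 2 was again the highest. Etfa was at 49.1% of the NGE level in pChePS_GC (-1.03 ± 0.19, adjusted p = 0.00166) and at 46.7% in pCP_GC (-1.10 ± 0.20, adjusted p = 0.0015). Etfdh was at 51% in pChePS_GC (-0.97 ± 0.17, adjusted p = 0.00163) and 52.5% in pCP_GC (-0.93 ± 0.19, adjusted p = 0.00259).

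Etfb, the beta subunit of the flavoprotein, read 11.64, 12.04, 12.21 and 12.30 in pChePS_GC, 11.92, 11.41 and 11.82 in pCP_GC and 12.47, 12.59, 12.35 and 12.46 in NGE. All tumour arrays were below NGE, and replicate 1 was the lowest of pChePS_GC. Etfb fell by 0.42 in pChePS_GC (adjusted p = 0.0498) and by 0.75 in pCP_GC (adjusted p = 0.004). The pChePS_GC call was lost without any of the 4 NGE replicates, pChePS_GC replicate 1 or 2 or pCP_GC replicate 1 or 3 (adjusted p 0.053 to 0.111).

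The promoters of these genes were read for motifs of factors known to act on mitochondrial genes. RefSeq promoter windows (GRCm38.p6, 250 bases before to 50 after each transcript start) were found for 29 of the 31 genes, and each motif was searched on both strands. The oestrogen-related receptor motif AAGGTCA was in the windows of 2 genes, Acadm and Ogdh, which is 6.9% against 5.38% of all genes with a window. The ETS motif CCGGAAG was in 5, Cpt2, Dlst, Idh3b, Idh3g and Slc25a20, or 17.2% against 9.93%. The NRF1 core GCATGCG, whose letters overlap their own reverse complement, was in 5, Acadm, Etfa, Etfdh, Ogdh and Pdhb, or 17.2% against 4.01%. The direct repeat bound by PPAR and RXR was in 0, against 0.0481% of all genes. Ogdh has 6 windows, and the receptor motif was in 1 of them. A match describes these letters in these windows.

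The 4 windows printed here belong to genes with lower signals in both tumour groups. They show the motifs in place, in capitals: the receptor motif and the NRF1 core in Acadm, the NRF1 core in Etfdh, and the ETS motif at both its positions in Cpt2. Hadhb is shown for a window with none of the motifs; it shares 228 bases with the window of Hadha, whose start lies 273 bases away on the opposite strand.
Acadm (chr3:153944594-153944893, minus strand): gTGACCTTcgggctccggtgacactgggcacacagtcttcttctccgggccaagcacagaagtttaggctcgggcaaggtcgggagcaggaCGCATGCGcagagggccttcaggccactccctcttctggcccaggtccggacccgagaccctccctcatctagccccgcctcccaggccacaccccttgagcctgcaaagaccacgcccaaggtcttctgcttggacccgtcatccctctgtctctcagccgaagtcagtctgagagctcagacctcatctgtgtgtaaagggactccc
Etfdh (chr3:79628718-79629017, minus strand): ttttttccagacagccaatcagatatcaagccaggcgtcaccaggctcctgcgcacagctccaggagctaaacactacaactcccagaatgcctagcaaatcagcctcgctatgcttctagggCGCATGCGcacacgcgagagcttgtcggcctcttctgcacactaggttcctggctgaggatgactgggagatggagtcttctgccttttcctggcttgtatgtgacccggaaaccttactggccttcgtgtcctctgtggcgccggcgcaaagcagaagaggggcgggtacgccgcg
Cpt2 (chr4:107923540-107923839, minus strand): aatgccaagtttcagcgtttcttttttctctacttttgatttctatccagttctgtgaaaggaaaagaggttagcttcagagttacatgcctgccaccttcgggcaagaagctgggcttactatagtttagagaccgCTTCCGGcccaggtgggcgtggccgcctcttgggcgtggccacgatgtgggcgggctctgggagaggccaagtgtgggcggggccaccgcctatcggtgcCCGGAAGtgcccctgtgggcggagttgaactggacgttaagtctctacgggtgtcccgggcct
Hadhb (chr5:30155003-30155302, plus strand): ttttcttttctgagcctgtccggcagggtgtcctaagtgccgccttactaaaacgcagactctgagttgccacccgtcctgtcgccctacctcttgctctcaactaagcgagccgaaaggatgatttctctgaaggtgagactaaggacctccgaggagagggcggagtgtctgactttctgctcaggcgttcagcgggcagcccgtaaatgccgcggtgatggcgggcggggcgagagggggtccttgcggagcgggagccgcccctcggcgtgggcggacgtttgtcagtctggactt
In Acadm the receptor motif is a reverse complement beginning 249 bases upstream of the start, and the NRF1 core begins 158 bases upstream as written. In Etfdh the core begins 126 bases upstream. In Cpt2 the ETS motif begins 13 bases upstream as written and 113 bases upstream as its reverse complement.

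The tumour groups were compared with each other to ask how the enzyme genes differed between Smad4-floxed tumours with 1 floxed Cdh1 allele and tumours with both Cdh1 alleles floxed. Of the 31 genes, 2 passed, Cpt1a and Acads, both higher in pChePS_GC, where 0.366% of all genes passed in either direction and 0.115% were higher. Cpt1a was higher by 0.72 ± 0.13 on the log2 scale (adjusted p = 0.0462) and Acads by 0.51 ± 0.09 (adjusted p = 0.0435), and in each gene every pChePS_GC array was above every pCP_GC array. These calls rested on all 11 arrays being fitted. Cpt1a kept its call without pCP_GC replicate 1 (adjusted p = 0.019) and lost it without each of the other 10 arrays (adjusted p 0.0581 to 0.112). Acads kept it without pChePS_GC replicate 4 (adjusted p = 0.0407) and lost it without each of the others (adjusted p 0.058 to 0.117). With only the tumour groups fitted, the adjusted p was 0.279 for Cpt1a and 0.234 for Acads.

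The groups did not overlap for 4 genes that were higher in pChePS_GC, where 9.5% of all genes did so. They did not overlap for 1 gene that was lower, where 877 of all 19938 genes did so. Both counts are near those shares. Besides Cpt1a and Acads the higher genes were Acadl (0.53, 95% interval 0.18 to 0.89, adjusted p = 0.172) and Idh2 (0.46, 95% interval 0.16 to 0.76, adjusted p = 0.169). The gene on the lower side was Pdhb (-0.32, 95% interval -0.64 to 0.005, adjusted p = 0.309). Over the 15 fatty acid oxidation genes the median difference was 0.17 on the log2 scale, and over the 16 pyruvate dehydrogenase and TCA cycle genes it was -0.01, where the median of all genes was 0.04. For the 3 genes that were more than 2-fold lower in both comparisons with NGE, the intervals between the tumour groups were -0.36 to 0.28 for Ogdh, -0.34 to 0.36 for Cpt2 and -0.37 to 0.51 for Etfa, so differences of up to these sizes in either direction remain possible. Acaa2, with the largest decrease of the 31 genes in pCP_GC, differed between the tumour groups by 0.49 (95% interval -0.05 to 1.03, adjusted p = 0.343), and its groups overlapped.

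**Figure D3:**
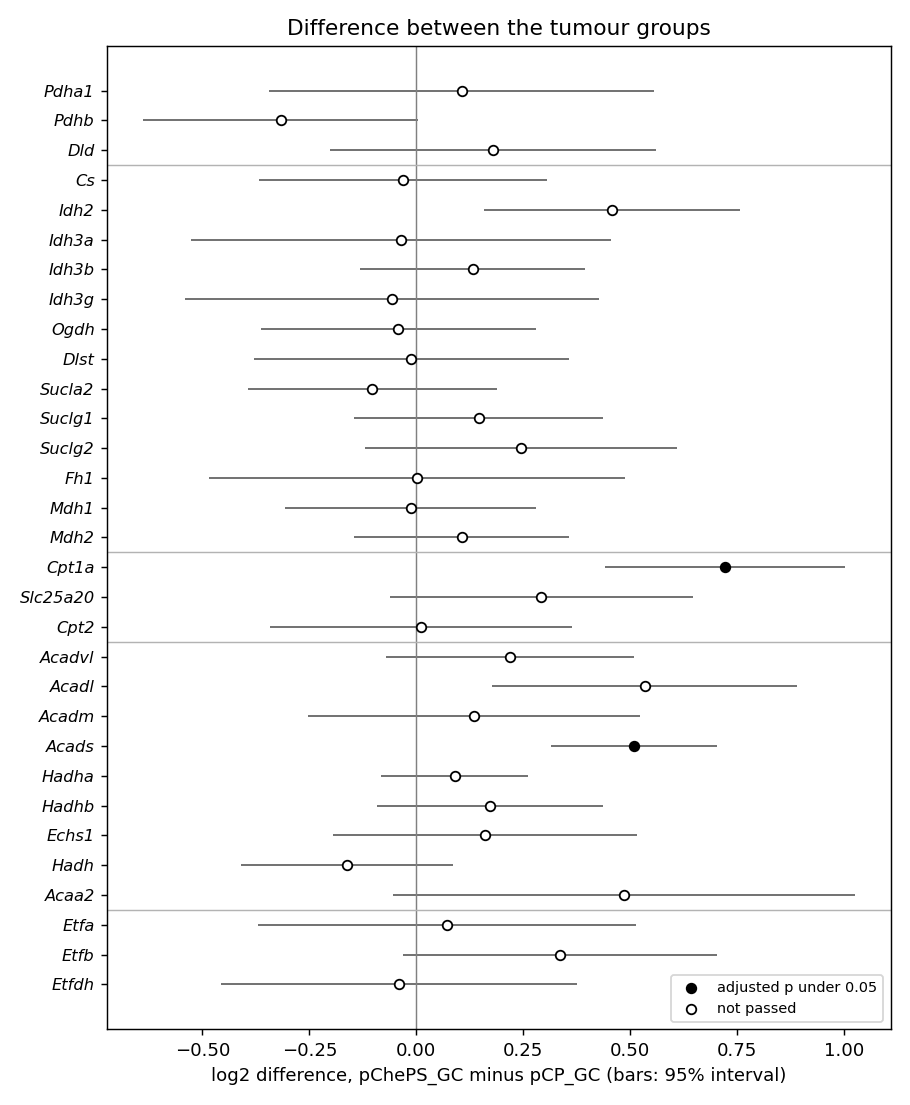
Log2 difference of each gene, pChePS_GC minus pCP_GC, with 95% intervals from the fit over all 11 arrays; filled points passed an adjusted p under 0.05. Cpt1a at 0.72 and Acads at 0.51 are the filled points, and the estimates of all 31 genes run between -0.32 and 0.72.

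The pathways around these enzymes were followed in lists of neighbouring genes, to be read against the 23.4% of all genes lower and 18.7% higher in pChePS_GC and the 31.8% lower and 20% higher in pCP_GC. Of 20 other TCA cycle and pyruvate enzymes, 9 were lower and 3 higher in pChePS_GC, and 9 were lower and 4 higher in pCP_GC. Sdhb, the iron-sulphur subunit of succinate dehydrogenase, differed by -1.08 in pChePS_GC (adjusted p = 0.000143) and -0.94 in pCP_GC (adjusted p = 0.000564). The malic enzymes, which make pyruvate from malate, were lower too: Me2 differed by -2.19 in pChePS_GC (adjusted p = 0.00074) and -1.57 in pCP_GC (adjusted p = 0.00588) and Me3 by -1.83 in pChePS_GC (adjusted p = 3.7e-06) and -2.09 in pCP_GC (adjusted p = 4.18e-06). The cytosolic Me1 passed in pChePS_GC (-1.11, adjusted p = 0.0145) and did not in pCP_GC (-0.77, adjusted p = 0.068).

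The pyruvate dehydrogenase kinases, which switch the complex off by phosphorylating the Pdha1 product, moved in different directions. Pdk4, the isoform induced in fasting, had log2 signals of 8.14, 9.97, 10.20 and 8.72 in pChePS_GC, 9.53, 8.71 and 8.33 in pCP_GC and 11.05, 11.71, 11.90 and 11.94 in NGE. Every tumour array was below NGE. Pdk4 differed by -2.39 in pChePS_GC (adjusted p = 0.00198) and -2.79 in pCP_GC (adjusted p = 0.00113), and Pdk2 by -0.86 in pChePS_GC (adjusted p = 0.00195) and -1.14 in pCP_GC (adjusted p = 0.000552). Pdk1, a target of hypoxia signalling, was higher in pChePS_GC (0.60, adjusted p = 0.0351) and did not pass in pCP_GC (-0.14, adjusted p = 0.598). Pdk3 was higher in pCP_GC (1.07, adjusted p = 0.0325) and did not pass in pChePS_GC (0.78, adjusted p = 0.0873).

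Of 20 other genes listed with fatty acid oxidation, 13 were lower and 2 higher in pChePS_GC, and 12 were lower and 2 higher in pCP_GC. The list also takes in enzymes for branched acyl-CoA and propionyl-CoA. Acadsb, the dehydrogenase of short branched acyl-CoA, differed by -1.70 in pChePS_GC (adjusted p = 5.75e-06) and -1.63 in pCP_GC (adjusted p = 1.61e-05). Pcca, a subunit of propionyl-CoA carboxylase, differed by -1.46 in pChePS_GC (adjusted p = 0.00291) and -1.06 in pCP_GC (adjusted p = 0.016), and Acad11 by -1.35 in pChePS_GC (adjusted p = 0.000435) and -1.08 in pCP_GC (adjusted p = 0.00219). Acsl4, an acyl-CoA synthetase with a preference for arachidonic acid, was higher by 1.91 in pChePS_GC (adjusted p = 3.72e-05) and 1.77 in pCP_GC (adjusted p = 0.00012). Of 8 genes of peroxisomal beta-oxidation, 7 were lower in each tumour group and 0 higher, including Ehhadh, the peroxisomal bifunctional enzyme (-1.42 in pChePS_GC, adjusted p = 9.03e-05, and -1.25 in pCP_GC, adjusted p = 0.000386), and the thiolase Acaa1a (-0.87 in pChePS_GC, adjusted p = 0.000216, and -1.12 in pCP_GC, adjusted p = 7.62e-05). Of 3 ketone body enzymes, 2 were lower in pChePS_GC and 1 in pCP_GC, with Oxct1, which activates acetoacetate for use as fuel, at -2.09 in pChePS_GC (adjusted p = 1.83e-05) and -1.99 in pCP_GC (adjusted p = 4.66e-05).

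Fatty acid supply and synthesis held larger differences. Of 13 genes of fatty acid uptake and acyl-CoA hydrolysis, 8 were lower and 2 higher in pChePS_GC, and 7 were lower and 1 higher in pCP_GC. Fabp3, a cytosolic fatty acid binding protein, read 7.33, 7.66, 7.71 and 7.56 in pChePS_GC, 7.18, 8.10 and 7.44 in pCP_GC and 11.81, 12.50, 12.31 and 12.09 in NGE. The fatty acid translocase gene Cd36 read 5.92, 9.82, 10.08 and 7.43 in pChePS_GC, 7.89, 8.51 and 8.09 in pCP_GC and 11.40, 11.75, 11.66 and 11.47 in NGE. For both genes every tumour array was below NGE, with a wide spread among the tumours for Cd36. Fabp3 differed by -4.61 in pChePS_GC (adjusted p = 1.48e-07) and -4.61 in pCP_GC (adjusted p = 3.02e-07), and Cd36 by -3.26 in pChePS_GC (adjusted p = 0.00663) and -3.41 in pCP_GC (adjusted p = 0.00578). The intestinal binding protein gene Fabp2 was lower in both groups (-4.002 in pChePS_GC, adjusted p = 2.53e-06, and -2.18 in pCP_GC, adjusted p = 0.000245) and lower in pChePS_GC than in pCP_GC (-1.82, adjusted p = 0.0317). Fabp1 was lower in pChePS_GC (-2.40, adjusted p = 0.00224) and did not pass in pCP_GC (-1.07, adjusted p = 0.0884).

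Of 9 fatty acid synthesis genes, 2 were lower and 3 higher in pChePS_GC, and 2 were lower and 4 higher in pCP_GC. Scd1, a stearoyl-CoA desaturase, was higher by 3.61 in pChePS_GC (adjusted p = 6.17e-06) and 4.01 in pCP_GC (adjusted p = 7.49e-06). The elongase gene Elovl5 was higher by 3.14 in pChePS_GC (adjusted p = 1.28e-07) and 3.14 in pCP_GC (adjusted p = 2.61e-07), and Scd2 by 2.11 in pChePS_GC (adjusted p = 0.000118) and 1.99 in pCP_GC (adjusted p = 0.000313). Acacb, the acetyl-CoA carboxylase at the mitochondrial surface whose malonyl-CoA restrains Cpt1a, read 7.72, 8.43, 8.40 and 8.37 in pChePS_GC, 8.44, 8.68 and 8.05 in pCP_GC and 11.38, 11.65, 11.47 and 11.43 in NGE. The groups were far apart, with differences of -3.25 in pChePS_GC (adjusted p = 6.56e-07) and -3.09 in pCP_GC (adjusted p = 2.4e-06).

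Genes of the mitochondrial outer membrane and protein import were listed as mitochondrial genes outside matrix oxidation. Of 12 such genes, 1 was lower and 2 were higher in pChePS_GC, and 1 was lower and 3 were higher in pCP_GC, with medians of 0.02 and -0.04 on the log2 scale. Tomm20, an import receptor, was higher by 0.78 in pChePS_GC (adjusted p = 0.00147) and 0.65 in pCP_GC (adjusted p = 0.00477). Phb2, a prohibitin of the inner membrane, was higher by 0.55 in pChePS_GC (adjusted p = 0.00345) and 0.37 in pCP_GC (adjusted p = 0.0258). The channel gene Vdac2 was lower, with differences of -0.46 in pChePS_GC (adjusted p = 0.00168) and -0.43 in pCP_GC (adjusted p = 0.00332). The difference between this list and the enzyme genes was not tested.

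**Figure D4:**
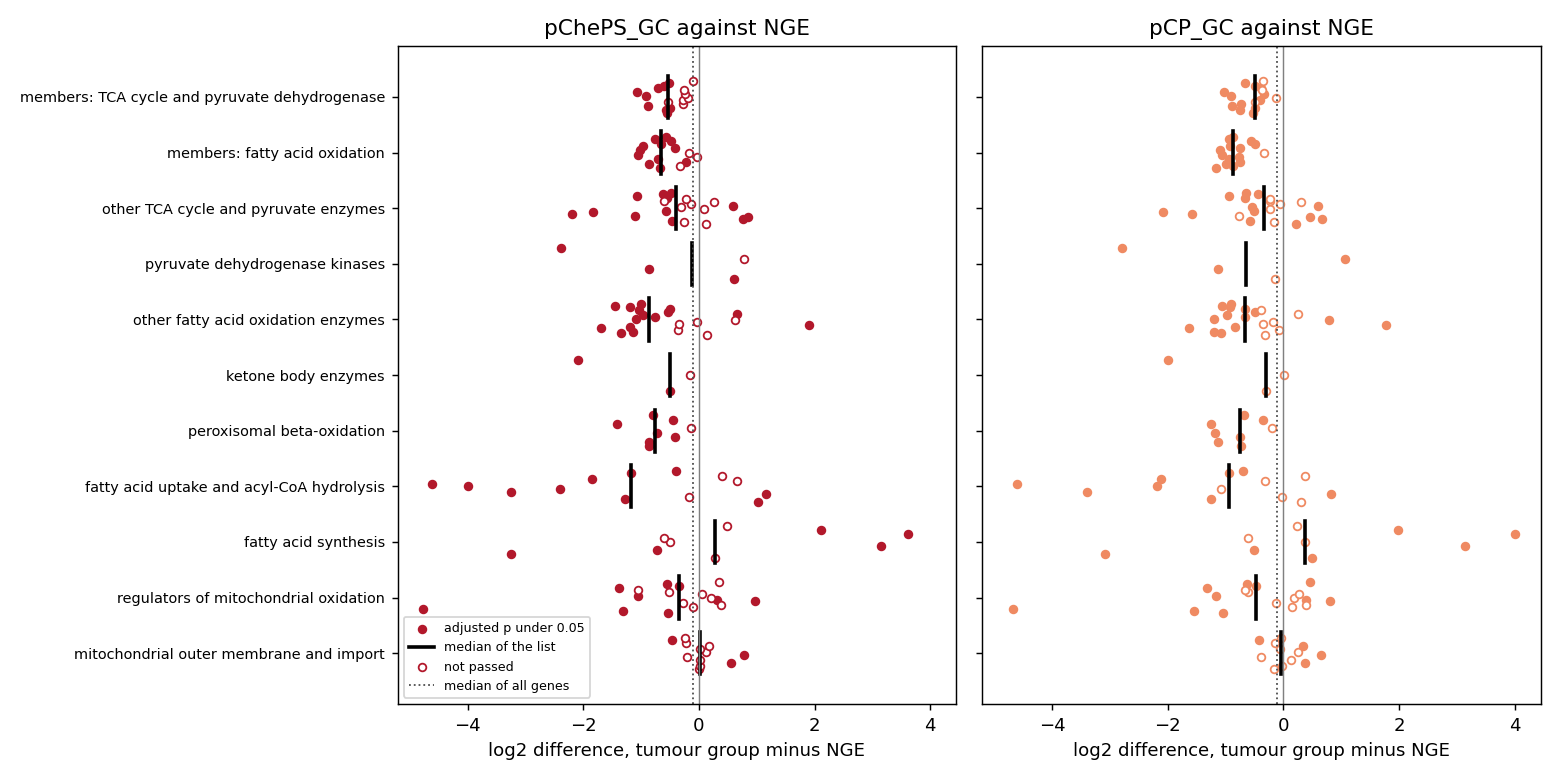
Log2 difference of every gene in the enzyme lists and the neighbouring pathway lists, pChePS_GC against NGE on the left and pCP_GC against NGE on the right; filled points passed an adjusted p under 0.05, black bars are list medians and dotted lines the median of all genes. The enzyme genes cluster between -1.2 and 0, fatty acid uptake and synthesis genes spread from below -4 to 4, and the outer membrane list centres near 0.

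Among 17 regulators of mitochondrial oxidation, 7 were lower and 2 higher in pChePS_GC, and 7 were lower and 3 higher in pCP_GC. The share lower was 41.2% in each group, against 23.4% of all genes in pChePS_GC and 31.8% in pCP_GC. Esrrg, the oestrogen-related receptor gamma gene and also one of the parietal cell markers used here, had log2 signals of 6.96, 7.18, 7.21 and 7.38 in pChePS_GC, 7.09, 7.75 and 6.997 in pCP_GC and 11.98, 12.13, 11.95 and 11.77 in NGE. The tumour arrays were all more than 4 log2 units below NGE. The difference was -4.78 ± 0.16 in pChePS_GC (adjusted p = 2.19e-08) and -4.68 ± 0.18 in pCP_GC (adjusted p = 7.81e-08). Esrra, the alpha receptor, read 9.54, 9.62, 9.28 and 9.71 in pChePS_GC, 9.17, 8.88 and 9.09 in pCP_GC and 10.13, 9.95, 10.03 and 10.21 in NGE. It was lower in both groups, at -0.54 in pChePS_GC (adjusted p = 0.00328) and -1.04 in pCP_GC (adjusted p = 0.000105), and the pCP_GC arrays were the lowest.

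Ppara, a nuclear receptor that induces fatty acid oxidation genes, differed by -1.06 in pChePS_GC (adjusted p = 0.000372) and -1.16 in pCP_GC (adjusted p = 0.000367). The coactivator gene Ppargc1b differed by -1.39 in pChePS_GC (adjusted p = 0.000254) and -1.31 in pCP_GC (adjusted p = 0.000614). Its relative Ppargc1a read 6.87, 7.66, 10.85 and 9.94 in pChePS_GC, 8.52, 9.84 and 9.31 in pCP_GC and 9.80, 10.35, 9.68 and 9.73 in NGE. The pChePS_GC arrays ran from far below to above the NGE arrays, and Ppargc1a passed in neither group (-1.06, adjusted p = 0.258, in pChePS_GC and -0.67, adjusted p = 0.499, in pCP_GC). In the same group replicate 3 had the highest Ppargc1a value. It had the lowest of the 4 pChePS_GC values for 11 of the 31 genes and the highest for 4. Replicate 1, with the lowest Ppargc1a value, was lowest for 10 genes and highest for 6. Replicate 2 was lowest for 1 and highest for 15, and replicate 4 was lowest for 9 and highest for 6. The means over the 31 genes were 11.15 in replicate 1 and 11.14 in replicate 3. A relation to Ppargc1a was not tested. The regulators that rose are outside the naming rule and were chosen after their values were seen. Nrf1, whose product binds the NRF1 core searched for in the promoters, was higher by 0.31 in pChePS_GC (adjusted p = 0.0178) and 0.40 in pCP_GC (adjusted p = 0.00561). Myc, a growth-promoting transcription factor gene, was higher by 0.97 in pChePS_GC (adjusted p = 0.00533) and 0.81 in pCP_GC (adjusted p = 0.0135). Tfam, the mitochondrial transcription factor A gene, was higher in pCP_GC (0.45, adjusted p = 0.0208) and did not pass in pChePS_GC (0.34, adjusted p = 0.0586).

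Many genes of the gastric gland and surface cell types were lower in the tumours along with the enzyme genes. Over all genes, the shares lower were 23.4% in pChePS_GC and 31.8% in pCP_GC. Of 13 parietal genes, 12 were lower in pChePS_GC and 10 in pCP_GC. Their mean log2 signal was 8.99 to 9.29 in pChePS_GC, 8.92 to 9.89 in pCP_GC and 11.85 to 12.09 in NGE. Cblif was on both the parietal and the chief cell list and is counted in each. Atp4b, which encodes the proton pump's beta subunit, read 7.54, 8.46, 7.50 and 7.52 in pChePS_GC, 7.19, 10.79 and 7.14 in pCP_GC and 13.87, 13.91, 13.93 and 13.86 in NGE. The pCP_GC replicate 2 array stood out, with Atp4b more than 3 log2 units above the other pCP_GC arrays. Atp4a read 11.40 in it, against 7.57 and 7.48 in replicates 1 and 3, and Cblif 10.63, against 8.74 and 7.30. Kcnq1, Ckmt1, Slc9a4 and Car2 had their lowest pCP_GC values in that array. The remaining parietal genes were highest there by smaller margins. The same array had the lowest pCP_GC value for 22 of the 31 enzyme genes and the highest for 1. Its mean over the 31 genes was 10.98, against 11.22 in replicate 1 and 11.09 in replicate 3. It also had the highest pCP_GC means of the fibroblast (12.02), macrophage (11.42) and smooth muscle genes (11.97). Its epithelial mean, 12.20, was the lowest of pCP_GC, and its array weight, 0.413, was the lowest of all arrays. What sets this array apart was not tested. Without that array 21 genes were lower in pCP_GC. Of 8 chief cell genes, which mark the enzyme-secreting cells of the glands, 8 were lower in pChePS_GC and 7 in pCP_GC, with median log2 differences of -3.001 in pChePS_GC and -1.67 in pCP_GC, where the parietal medians were -1.67 and -1.83. The mean log2 signal of the chief cell genes was 7.12 to 7.92 in pChePS_GC, 7.42 to 9.05 in pCP_GC and 10.49 to 11.10 in NGE. Of 8 genes listed for the surface mucous (pit) cells, 6 were lower and 1 higher in pChePS_GC (median -3.24), and 3 were lower and 1 higher in pCP_GC (median -1.27). The higher gene in both groups was Gkn3 (1.82 in pChePS_GC, adjusted p = 0.00171, and 2.43 in pCP_GC, adjusted p = 0.000472). The mean log2 signals of the list were 9.43 to 11.74 in pChePS_GC, 11.43 to 12.25 in pCP_GC and 13.13 to 13.28 in NGE. Among the enzyme genes, the mean over the 31 genes lay between 11.14 and 11.41 in pChePS_GC and between 11.70 and 11.96 in NGE. The part of parietal, chief, pit and stromal cells and of sex in the enzyme differences was not tested.

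**Figure D5:**
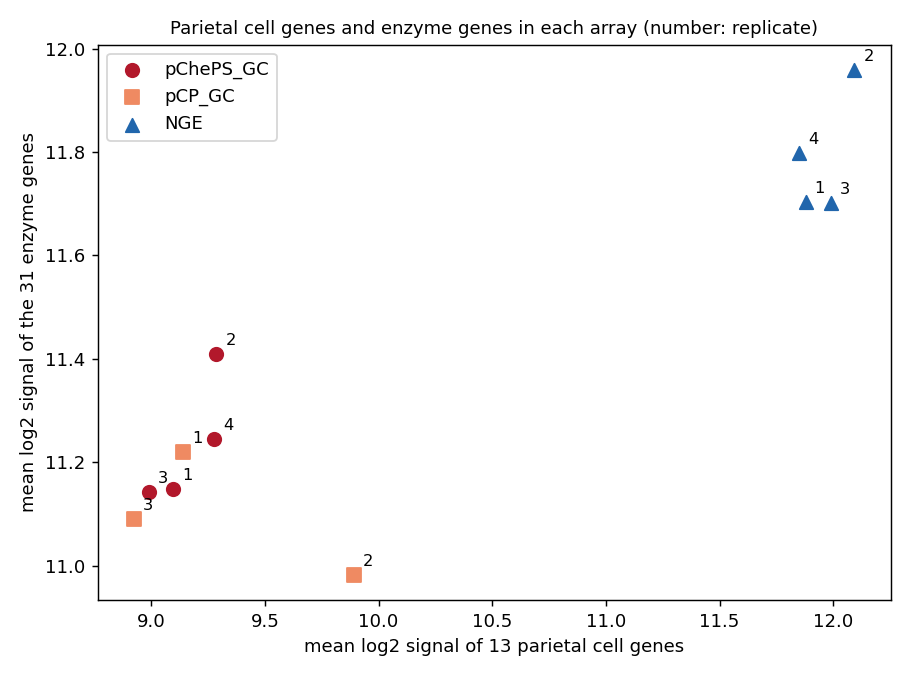
Mean log2 signal of the 31 enzyme genes (vertical axis) against the mean log2 signal of 13 parietal cell genes (horizontal axis) for each of the 11 arrays, numbered by replicate. The 4 NGE arrays sit at the upper right, and pCP_GC replicate 2 has the highest parietal mean of the tumours, 9.89, with the lowest enzyme mean, 10.98. Atp4a, Atp4b and Cblif stand out in that replicate, while Kcnq1, Ckmt1, Slc9a4 and Car2 have their lowest pCP_GC values in it. That replicate also has the highest fibroblast, macrophage and smooth muscle means of pCP_GC, which are not plotted.

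Markers of proliferation and of other tissues were read for the same samples. Over all genes, 23.4% were lower and 18.7% higher in pChePS_GC, and 31.8% were lower and 20% higher in pCP_GC. A count of 1 or 2 lower among 5 genes is near those shares. All 7 proliferation genes, all 6 smooth muscle genes and all 6 endothelial genes were higher in each tumour group. The smooth muscle genes had median differences of 3.32 in pChePS_GC and 3.38 in pCP_GC, with mean log2 signals of 9.23 to 12.33 in pChePS_GC, 10.82 to 11.97 in pCP_GC and 7.75 to 7.80 in NGE. Endothelial genes had median differences of 3.08 in pChePS_GC and 2.86 in pCP_GC, with means of 9.76 to 10.71 in pChePS_GC, 9.78 to 10.40 in pCP_GC and 7.01 to 7.14 in NGE. Of 6 dissociation and stress response genes, 3 were lower and 1 higher in pChePS_GC, and 1 was lower and 1 higher in pCP_GC. Of 5 T cell genes, 1 was lower in each tumour group and 0 were higher. Of 5 adipocyte genes, 0 passed in pChePS_GC and 2 were lower in pCP_GC, and of 7 skeletal and cardiac muscle genes, 1 was lower in pChePS_GC and 4 in pCP_GC. The mean log2 signal of the adipocyte genes was 7.59 to 8.85 in pChePS_GC, 7.42 to 7.56 in pCP_GC and 7.88 to 8.15 in NGE, and that of the skeletal and cardiac muscle genes was 7.18 to 7.53 in pChePS_GC, 7.26 to 7.41 in pCP_GC and 7.50 to 7.73 in NGE. Epithelial genes, 7 in all, averaged 11.96 to 12.58 in pChePS_GC, 12.20 to 12.83 in pCP_GC and 12.11 to 12.28 in NGE, so epithelial transcripts were present in every tumour sample.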

How the data were processed

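Per the labels, biotin-labelled total RNA was read on Affymetrix arrays. The authors deposited 35556 probe sets with a log2 signal for every sample; the unit log2 was inferred from the values, which run between 2.88 and 14.56. Per the submitters' processing notes the software was Affymetrix Expression Console; its version is not given in the sources used here, nor is the normalization method. Detection calls were not used, so dim values carry an unknown share of background.

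The platform annotation gave 1 gene symbol for 21789 probe sets, several for 1621 and none for 12146. Where a gene had several probe sets the brightest on average was taken, giving 19938 genes; the members matched RefSeq (GRCm38.p6) by gene number in 31 of 31 cases. Group means were fitted over all 11 arrays with limma 3.58.1 (lmFit and eBayes) in R 4.3.3, with two-sided tests, p-values adjusted by Benjamini-Hochberg over 19938 genes, and a threshold of 0.05. The scripts were tested on simulated data. The number of arrays limits the precision.

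The members and lists were chosen by function with earlier results of these data known. The named genes are all 31 members, up to 4 genes of each other list with the largest change among those passing, and Esrra, Esrrg, Ppara, Ppargc1a, Cdh1, Smad4, Atp4a, Atp4b, Xist and Eif2s3y. The fit was repeated with a trended robust prior, with only the compared groups, with other scalings and filters on dim genes, with other probe sets, with array weights, with the replicate block, at other thresholds, and without each array. Centring on the median of all 19938 genes tested and the other probe sets of Hadhb and Suclg2 were added after seeing the data.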

Additional observations from a re-analysis of the deposited data

Results flagged for a closer look

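Hadh read 12.44 in pChePS_GC replicate 3, where the other 3 pChePS_GC arrays read 12.01 to 12.05; the gap was 0.889 of the group's range. Of 62 such checks of the 31 genes in the groups of 4 arrays, 1 stood out, and chance alone marks about 1 in 20 groups. Cpt1a and Acads differed between the tumour groups by a test of the difference itself, Cpt1a by 0.72 and Acads by 0.51 on the log2 scale, pChePS_GC minus pCP_GC (limma adjusted p = 0.0462 and 0.0435).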

How the results depend on the processing

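Of 21 genes lower in pChePS_GC, 17 passed under all 22 settings of the fit, the exceptions being Dlst, Acads, Acaa2 and Etfb. Of 26 lower in pCP_GC, 21 did, the exceptions being Pdhb, Cs, Idh3b, Dlst and Mdh2. Of 10 genes that did not pass in pChePS_GC, 4 failed under every setting, and of 5 in pCP_GC, 1 did. With only pCP_GC and NGE fitted, Pdha1, Idh3a, Suclg2 and Echs1 passed as lower in pCP_GC (limma adjusted p 0.0111 to 0.0323). Requiring at least a 1.5-fold change left 13 genes lower in pChePS_GC. In pCP_GC the same rule removed Pdhb, Cs, Idh3b, Dlst, Sucla2, Mdh2, Hadha and Hadh. The share of all genes that met this rule was not counted. The scaling mattered. With arrays centred on the medians of all their probe sets, 17 genes were lower in pChePS_GC and 22 in pCP_GC (15.4% and 24.4% of all genes lower). Quantile normalization gave 24 and 26 (18.1% and 23.3%). Arrays were also centred on the median of the 19938 genes tested, a setting chosen after seeing the data. That gave 26 and 30 (45.6% and 48.7%), against 23.4% and 31.8% of all genes as reported. The last shifted the median of all genes by -0.17 and -0.21. Of all calls in pChePS_GC, 55.5% were lower as reported, 43.9% after median centring, 51.8% after quantile normalization and 77.2% after centring on the genes tested. In pCP_GC these were 61.4%, 52.6%, 57.6% and 78.3%. Leaving out each array in turn gave 17 to 24 genes lower in pChePS_GC and 21 to 28 in pCP_GC, with 0 higher, and 0 to 1 passing between the tumour groups. Against 2 as reported, the count passing between the tumour groups was 1 with a trended robust prior, with array weights or at 1.5-fold, and 0 with only the compared groups, either centring, either filter on dim genes, an adjusted p under 0.01 or the replicate block. In pChePS_GC against NGE, estimates changed sign for Idh3g (-0.302 to 0.0611 as each array was left out, the highest without pChePS_GC replicate 1), Suclg2 (-0.22 to 0.0266, the highest without pChePS_GC replicate 3) and Cpt1a (0.019 with arrays centred on their medians). Between the tumour groups, 12 of the 31 genes changed sign under some setting, Ogdh, Cpt2 and Etfa among them. The cause was not tested. With group means removed, same-numbered arrays correlated at -0.155 to 0.156. In the comparisons, 2 of 4, 1 of 3 and 1 of 3 arrays correlated best with their own number. With 3 or 4 arrays per group, this check could not exclude a batch shared by replicate number. With the replicate block, 20 genes were lower in pChePS_GC, 24 in pCP_GC and 0 passed between the tumour groups, where genes passing overall went to 8553, 9610 and 0, against 8386, 10337 and 73 without it.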
